A study of Mus musculus with 6 samples.

Results

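The genes described are the C-type lectin receptors of mouse lung, taken as every annotated gene whose symbol starts with Clec and a digit or with Cd209. Of 40842 reference genes in the tables, 40 met this rule, 33 of them Clec genes and 7 Cd209 genes. Levels are FPKM, a read density scaled for transcript length and for library size, in polyA RNA of whole lung. The irradiated group was 3 libraries of wild-type female C57BL/6N mice 100 days after 20 Gy of electrons (9 MeV) given at once, and the control group was 3 libraries of untreated mice of the same strain, sex and time. Neither the ages nor the part of the body exposed is stated, and it is not stated that each library is a mouse of its own. The p-values therefore cover the spread of these libraries, which may be technical.

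C-type lectin receptors share a fold that in many members binds sugars in the presence of calcium. Those of myeloid cells sense fungal and bacterial walls and the remains of dead cells. The activating ones pass the signal to the kinase Syk, directly or through the adaptors Fcer1g and Tyrobp, and the inhibitory ones recruit phosphatases such as Ptpn6. Other members serve endothelium, platelets and matrix, or are ligands that natural killer cells read as a sign of a normal cell.

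Depth, worked out from the ratio of coverage to FPKM, came to 5.11 to 10.4 Gb of aligned sequence per library, with irradiated 2 the deepest. Markers of lung epithelium, 6 in number, were present in every library. Sftpc, the surfactant protein C gene, was at 8741 to 9588 FPKM in irradiated lung and 14677 to 16828 FPKM in control lung. Sftpb and Scgb1a1 were likewise lower without overlap, as 14.6% of all genes tested were. Ager, Rtkn2 and Foxj1 overlapped between the groups, and Foxj1 had the higher mean in irradiated lung (44.0 against 35.2 FPKM). Irradiated 2 stood apart in blood transcripts: the summed level of 6 red cell genes was 6253 FPKM there, against 1347 to 1708 FPKM in the other libraries. Heart muscle and fat transcripts were uneven as well, with 4 heart genes summing to 14.8 to 179 FPKM in irradiated and 55.1 to 380 FPKM in control lung. The results of the C-type lectins without irradiated 2, and without each other library, are given where they differ.

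Of the 40 genes, 23 averaged 1 FPKM or more across all 6 libraries and were tested, and 17 did not. Clec5a, with a control mean of 0.888 FPKM, was the 1 tested gene that met this minimum through 1 group. No C-type lectin gene passed an adjusted p of 0.05 with limma in the fit over all 13908 genes tested, in which 0.18% of genes were called (0.0647% higher and 0.115% lower). At an unadjusted p under 0.05, 4 of the 23 were higher in irradiated lung, where 7.41% of all genes were, and 5 were lower, where 10.3% of all genes were. The 3 irradiated and 3 control libraries did not overlap for the same 9 genes, against 24.5% of all genes, higher for Clec4n, Clec4a2, Clec4a1 and Clec5a (9.91% of all genes) and lower for Clec12b, Clec2d, Clec9a, Clec14a and Clec1b (14.6% of all genes). Among the lower ones, Clec9a and Clec1b lie within the annotated span of Clec12b, so their changes may not be separate. The median log2 change of the 23 was 0.11, beside a median of -0.03 over all genes tested. Each log2 change below is the irradiated mean less the control mean of log2(FPKM + 1), given with its standard error.

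**Figure D1:**
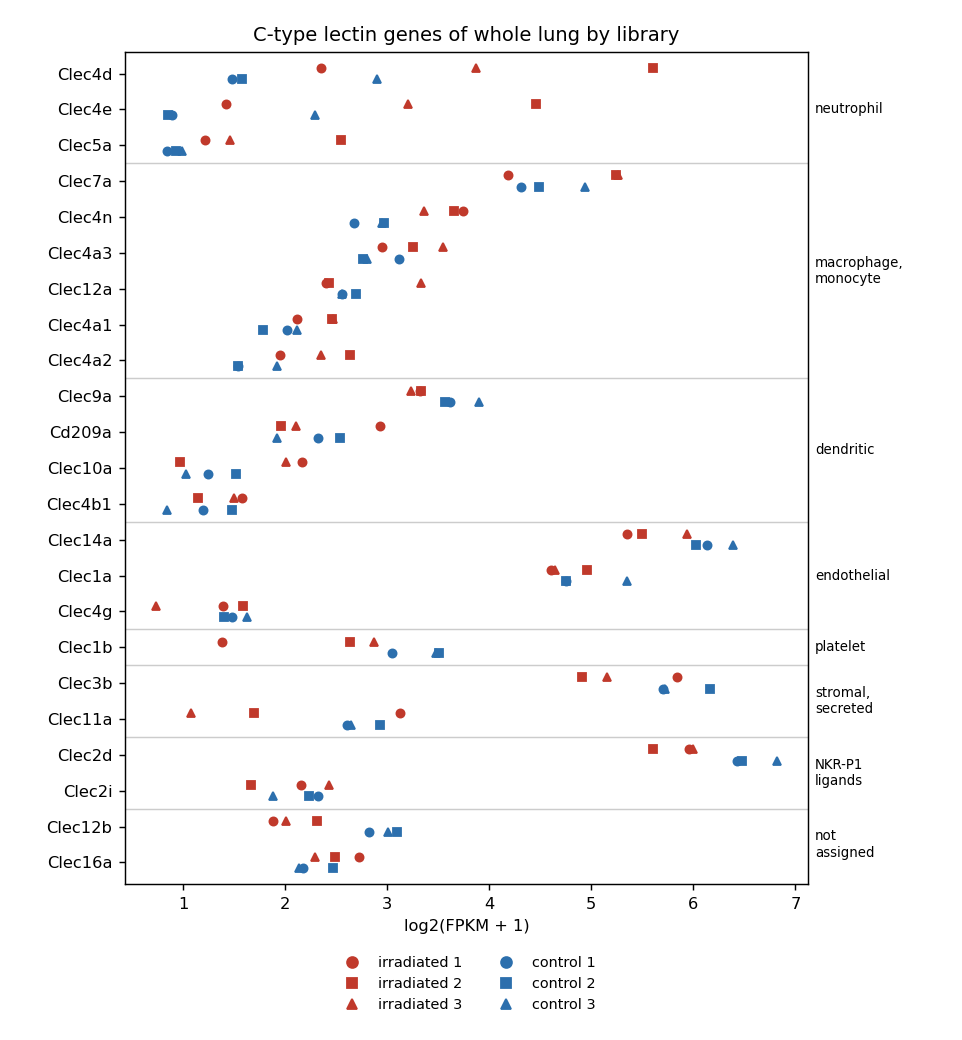
Level of the 23 tested C-type lectin genes in each library, as log2(FPKM + 1) on the horizontal axis, with genes grouped by the cell source assigned from general knowledge. Each point is 1 library (irradiated above control for each gene). Clec4d reached 47.8 FPKM in irradiated 2 and 4.08 FPKM in irradiated 1, the widest spread within a group.

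The most abundant member was Clec2d in 5 libraries, while in irradiated 2 Clec4d (47.8 FPKM) was level with it (47.7 FPKM). The 40 genes summed to 282, 331 and 319 FPKM in irradiated 1 to 3 and to 325, 353 and 401 FPKM in control 1 to 3. The 4 highest members made up 53.3% to 64.1% of that sum in irradiated lung and 70.5% to 71.4% in control lung. Clec2d alone was 14.4% to 21.8% of the sum in irradiated lung and 25.0% to 27.9% in control lung, and these ranges do not overlap.

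The neutrophil-associated members had the largest positive changes of the 23, and Clec4d and Clec4e the widest spread. Clec4d, also called MCL, and Clec4e, also called Mincle, signal together through Fcer1g, and Clec4e recognises a mycobacterial glycolipid and material of dying cells. Clec5a, also called MDL-1, signals through Tyrobp. Clec4d was at 4.08, 47.8 and 13.6 FPKM in irradiated 1 to 3 and at 1.79, 1.97 and 6.44 FPKM in control 1 to 3. Clec4e was at 1.67, 21.0 and 8.19 FPKM in irradiated 1 to 3 and at 0.851, 0.807 and 3.89 FPKM in control 1 to 3. For both genes irradiated 1 lay below control 3, so the groups overlapped. Their log2 changes were 1.96 ± 0.89 and 1.68 ± 0.83 (limma adjusted p = 0.326 and 0.355). Without irradiated 2 the changes were 1.12 and 0.96, and without irradiated 1 they were 2.75 and 2.49. Over the alternatives the limma adjusted p was 0.106 to 0.625 for Clec4d and 0.103 to 0.668 for Clec4e, lowest without irradiated 1.

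The ratio of Clec4d to Clec4e was steadier than either level. It was 2.44, 2.27 and 1.66 in irradiated 1 to 3 and 2.10, 2.44 and 1.66 in control 1 to 3, so its ranges in the groups overlap almost fully. The 2 genes lie next to each other on chromosome 6 and end towards each other, Clec4d at 123239066 to 123252227 on the plus strand and Clec4e at 123258748 to 123266830 on the minus strand (GRCm39, from the files). Clec5a had a narrower range, with 1.32, 4.82 and 1.74 FPKM in irradiated 1 to 3 and 0.789, 0.895 and 0.98 FPKM in control 1 to 3. All 3 irradiated libraries lay above the controls, the highest of them again irradiated 2 (log2 change 0.82 ± 0.33, limma adjusted p = 0.268), and without that library the change was 0.42. The gene lies apart from the others, at chromosome 6, 40551832 to 40562739.

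The RefSeq promoters of these 3 genes are shown because their levels were highest in the same library, irradiated 2. Each runs from 250 bases before the start site to 50 bases after it, 5′ to 3′ on the gene's strand, in GRCm38.p6 (Clec4d chr6:123261857-123262156, plus strand; Clec4e chr6:123289822-123290121, minus strand; Clec5a chr6:40585756-40586055, minus strand), which is not the build of the files. Capitals mark matches to TTGCNNAA (C/EBP) or AGGAAG (PU.1 and other ETS factors) on either strand, and no matches overlap.
Clec4d: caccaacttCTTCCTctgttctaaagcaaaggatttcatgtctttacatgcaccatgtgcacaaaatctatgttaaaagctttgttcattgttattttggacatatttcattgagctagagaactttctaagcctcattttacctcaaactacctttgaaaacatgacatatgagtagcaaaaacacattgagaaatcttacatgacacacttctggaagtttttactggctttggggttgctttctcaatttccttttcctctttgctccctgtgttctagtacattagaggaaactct
Clec4e: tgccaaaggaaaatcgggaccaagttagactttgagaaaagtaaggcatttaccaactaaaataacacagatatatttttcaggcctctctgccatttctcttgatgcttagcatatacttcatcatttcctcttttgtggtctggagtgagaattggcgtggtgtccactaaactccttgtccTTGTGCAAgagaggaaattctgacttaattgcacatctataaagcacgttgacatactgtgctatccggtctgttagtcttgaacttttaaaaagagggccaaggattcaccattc
Clec5a: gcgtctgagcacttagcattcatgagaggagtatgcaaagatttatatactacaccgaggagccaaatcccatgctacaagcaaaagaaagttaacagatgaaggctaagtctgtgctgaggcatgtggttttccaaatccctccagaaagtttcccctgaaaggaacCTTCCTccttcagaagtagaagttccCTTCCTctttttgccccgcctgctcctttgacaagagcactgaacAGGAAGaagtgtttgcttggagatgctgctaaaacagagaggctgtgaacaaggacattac
The AGGAAG letters were found in Clec4d and at 3 places in Clec5a, and are in 35.1% of the 27025 RefSeq promoters of this length. The TTGCNNAA letters were found in Clec4e, and are in 10.8% of promoters. Neither TGANTCA (AP-1, 7.93% of promoters) nor a motif of NF-κB (1.17%) was found in the 3 windows. Of the 40 genes, 33 had a promoter in the table.

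Most neutrophil marker genes were high in the same libraries. All 12 of a list that includes Csf3r, Cxcr2, S100a8 and S100a9 had positive changes (44.2% of all genes had), though Ly6g, with a control mean of 0.428 FPKM, was tested only through its irradiated level. None passed over all genes, and no marker was listed at 0. Mmp8 alone was higher without overlap, as 9.91% of all genes were. Ltf was highest in control 2 (52.9 FPKM), with means of 15.1 FPKM in irradiated and 20.7 FPKM in control lung. The summed level of the 12 was 259, 4954 and 1478 FPKM in irradiated 1 to 3 and 176, 131 and 542 FPKM in control 1 to 3. Without S100a9 the other 11 summed to 161, 3018 and 814 FPKM in irradiated 1 to 3. In control 1 to 3 these 11 summed to 99.8, 95.6 and 310 FPKM. Across libraries the order of Clec4d was the order of either sum, apart from control 1 and control 2, which changed places. Relative to the mean log2 level of the 12 markers, Clec4d was at -1.11, -0.95 and -1.22 in irradiated 1 to 3 and at -1.23, -0.63 and -1.01 in control 1 to 3, which overlap. Clec4e was at -2.03, -2.09 and -1.89 in irradiated lung and at -1.83, -1.35 and -1.62 in control lung, without overlap. Clec5a was at -2.23, -4.01 and -3.63 in irradiated lung and at -1.88, -1.28 and -2.92 in control lung, which overlap, and the difference of the means was -1.27, beside -0.13 for Clec4d and -0.40 for Clec4e. All 3 use log2(FPKM + 1), which compresses genes as low as Clec4e and Clec5a. In whole tissue, more or fewer cells of a type and more or less RNA per cell cannot be told apart, and the part of neutrophil number in these values was not tested.

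**Figure D2:**
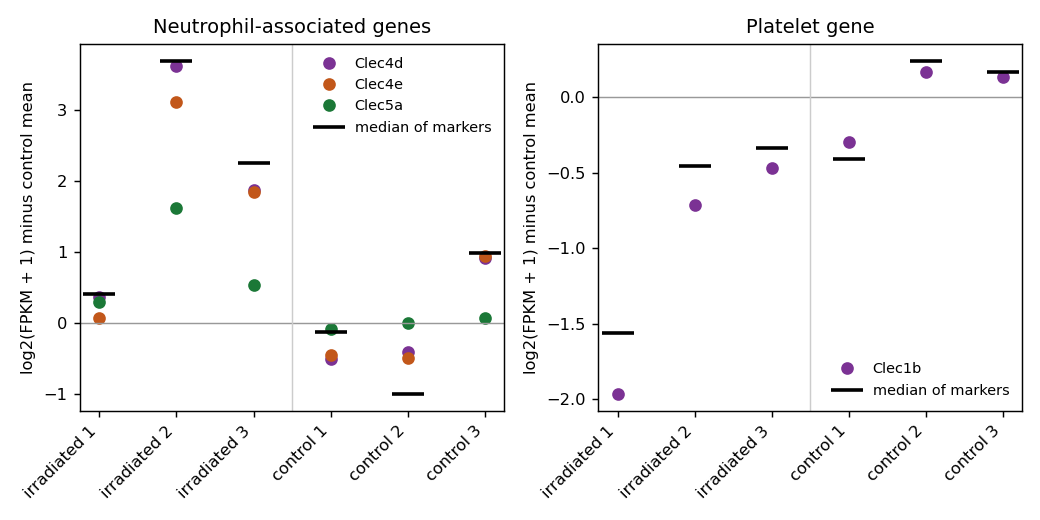
Level of Clec4d, Clec4e and Clec5a (left) and of Clec1b (right) in each library, as log2(FPKM + 1) minus the control mean on the vertical axis, each point 1 gene and each short black line the median over 12 neutrophil or 8 platelet markers. The neutrophil line is highest in irradiated 2 (3.70), and the platelet line is lowest in irradiated 1 (-1.56).

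The members assigned to macrophages and monocytes all had positive changes, 6 of 6 tested (44.2% of all genes had), with a median of 0.37. Clec12b, an inhibitory receptor of macrophages described below, was not assigned to a source and is not among them. It was lower without overlap (log2 change -0.91 ± 0.15), as 14.6% of all genes were. Of the 6, 3 were higher without overlap, as 9.91% of all genes were, and 1 of these, Clec4a1, by less than the printed digits. Clec4n, or Dectin-2, which binds fungal mannans and signals through Fcer1g, stood out by its small spread. It was at 12.4, 11.6 and 9.26 FPKM in irradiated 1 to 3 and at 5.36, 6.83 and 6.72 FPKM in control 1 to 3. Every irradiated library was above every control, and the means were 11.1 ± 1.62 FPKM in irradiated and 6.30 ± 0.82 FPKM in control lung (SD, n = 3 each). The log2 change was 0.72 ± 0.14 (limma adjusted p = 0.0833). It ranged from 0.63 to 0.91 over the alternatives, with a limma adjusted p of 0.0543 to 0.316, and the gene lies at chromosome 6, 123206802 to 123223983.

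The receptors related to DCIR, an inhibitory lectin with a phosphatase-recruiting tail, followed. Clec4a2, DCIR itself, was at 2.85, 5.22 and 4.11 FPKM in irradiated 1 to 3 and at 1.91, 1.90 and 2.78 FPKM in control 1 to 3. The groups came close, with irradiated 1 just above control 3 (log2 change 0.65 ± 0.21, limma adjusted p = 0.193). Clec4a1 was at 3.33, 4.48 and 4.52 FPKM in irradiated lung and at 3.04, 2.44 and 3.33 FPKM in control lung, where irradiated 1 and control 3 are all but equal (0.37 ± 0.15, limma adjusted p = 0.263). Clec4a3 was at 6.73, 8.52 and 10.6 FPKM in irradiated lung and at 7.63, 5.79 and 5.94 FPKM in control lung, and the groups overlapped (0.36 ± 0.17, limma adjusted p = 0.335). These genes are close copies of one another, so reads could be divided between them uncertainly.

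Clec7a, or Dectin-1, the receptor for fungal β-glucan, and Clec12a, an inhibitory receptor of myeloid cells that senses uric acid crystals, overlapped between the groups. Clec7a was at 17.1, 36.7 and 37.4 FPKM in irradiated 1 to 3 and at 18.9, 21.4 and 29.6 FPKM in control 1 to 3 (log2 change 0.32 ± 0.32, limma adjusted p = 0.652). Irradiated 1 was the lowest library of the 6. Clec12a was at 4.25, 4.38 and 9.04 FPKM in irradiated lung and at 4.90, 5.47 and 4.86 FPKM in control lung, high in irradiated 3 alone (0.11 ± 0.25, limma adjusted p = 0.854), and its change turned to -0.19 without that library.

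Markers of interstitial macrophages and of monocytes also had mostly positive changes. Of 12 interstitial macrophage markers 11 had positive changes (44.2% of all genes had) and 5 were higher without overlap (9.91% of all genes). Their summed level was 342 to 365 FPKM in irradiated and 191 to 233 FPKM in control lung, a gap that Lyve1, which lymphatic endothelium also expresses, carries: it was at 165, 218 and 190 FPKM in irradiated 1 to 3 and at 87.8, 72.3 and 105 FPKM in control 1 to 3. The other 11 summed to 200.1, 126 and 152 FPKM in irradiated 1 to 3 and to 110, 119 and 128 FPKM in control 1 to 3, which overlap. Lyve1, Adgre1 and Mertk were among those free of overlap at an unadjusted p under 0.05. Of 8 monocyte markers 7 had positive changes, and their sums were 280 to 391 FPKM in irradiated and 221 to 296 FPKM in control lung, which overlap, with F13a1, Ccr2, Ly6c2 and Fn1 higher without overlap. Vcan was too, but with a control mean of 0.509 FPKM it was tested only through its irradiated level. None passed over all genes and none was listed at 0. Relative to the 12 interstitial macrophage markers, Clec4n was at -0.14, 0.35 and -0.26 on the log2 scale in irradiated 1 to 3 and at -0.51, -0.25 and -0.35 in control 1 to 3, which overlap. Alveolar macrophage markers went both ways (5 of 10 positive), with Chil3, a chitinase-like protein, at 233 to 417 FPKM in irradiated and 126 to 175 FPKM in control lung, and the scavenger receptor Marco at 0.418 to 4.01 FPKM in irradiated and 4.81 to 8.24 FPKM in control lung. Krt79 and Fabp1 of that list were also lower without overlap. The part of these cells in the lectin levels was not tested.

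Among the dendritic cell members, Clec9a was lower and the other 3 tested overlapped between groups. Clec9a, or DNGR-1, helps type 1 dendritic cells present antigen from dead cells by binding their exposed actin filaments. It was at 8.95, 9.02 and 8.42 FPKM in irradiated 1 to 3 and at 11.2, 10.9 and 13.9 FPKM in control 1 to 3. The irradiated libraries differed little (SD 0.326 FPKM) and all lay below the controls (log2 change -0.40 ± 0.11, limma adjusted p = 0.156). Relative to 6 other genes of type 1 dendritic cells, whose mean log2 level differed by 0.01 between the groups, Clec9a was at 0.06, 0.50 and 0.11 in irradiated 1 to 3 and at 0.52, 0.47 and 0.92 in control 1 to 3, and irradiated 2 lay within the control range. Xcr1, a chemokine receptor that defines these cells, was below the test's minimum, at 1.28, 0.596 and 0.636 FPKM in irradiated and 0.895, 0.912 and 0.575 FPKM in control lung. Of the 6 markers, Wdfy4, needed for cross-presentation, was higher without overlap (5.93 ± 0.961 FPKM in irradiated and 4.04 ± 0.633 FPKM in control lung) and Cadm1, an adhesion molecule that other lung cells also make, was lower without overlap (34.2 ± 0.948 FPKM in irradiated and 45.3 ± 4.12 FPKM in control lung).

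Clec10a, a galactose-binding receptor of dendritic cells and macrophages, was at 3.48, 0.956 and 3.02 FPKM in irradiated 1 to 3 and at 1.36, 1.86 and 1.04 FPKM in control 1 to 3. Irradiated 2 was the lowest library of the 6 and the other 2 irradiated libraries the highest (log2 change 0.45 ± 0.33, limma adjusted p = 0.51). Without irradiated 2 the change was 0.82 (limma adjusted p = 0.178, and 0.178 to 0.772 over the alternatives). Cd209a, a mouse relative of DC-SIGN found on monocyte-derived dendritic cells, was at 6.63, 2.87 and 3.30 FPKM in irradiated lung and at 4.004, 4.78 and 2.77 FPKM in control lung, with irradiated 1 highest (0.07 ± 0.29, limma adjusted p = 0.92). Clec4b1, an activating receptor also called DCAR1, was at 1.21 to 1.97 FPKM in irradiated lung and 0.783 to 1.78 FPKM in control lung. Of 6 tested markers of other dendritic cells 5 had positive changes (44.2% of all genes had). Flt3, the receptor of the growth factor of these cells, was at 2.42, 2.16 and 2.75 FPKM in irradiated 1 to 3 and at 1.75, 1.48 and 0.998 FPKM in control 1 to 3, without overlap.

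**Figure D3:**
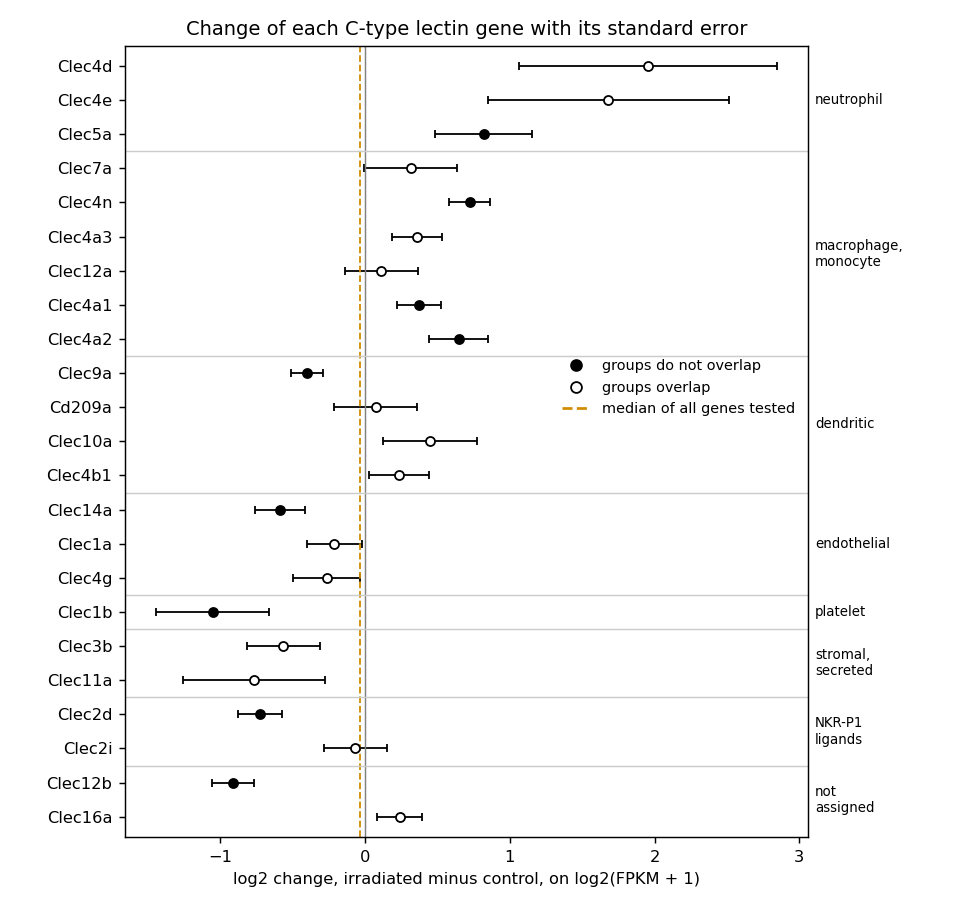
Log2 change (irradiated minus control, on log2(FPKM + 1), horizontal axis) of the 23 tested genes with its standard error from limma, filled where the 3 irradiated and 3 control libraries do not overlap. The dashed line is the median of all genes tested (-0.03). Clec4d and Clec4e have the largest changes and the widest errors, while Clec4n (0.72 ± 0.14) and Clec12b (-0.91 ± 0.15) have small errors.

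The endothelial members had negative changes, 3 of 3 (55.8% of all genes had). Clec14a, a receptor of blood vessel walls that binds the matrix protein Mmrn2 in sprouting vessels, was at 39.7, 44.1 and 60.5 FPKM in irradiated 1 to 3 and at 69.1, 64.0 and 82.6 FPKM in control 1 to 3. Every irradiated library was below every control, irradiated 3 most narrowly (log2 change -0.58 ± 0.18, limma adjusted p = 0.177). The gene is at chromosome 12, 58311506 to 58316044. Its ligand Mmrn2 was at 28.8, 21.4 and 11.3 FPKM in irradiated 1 to 3 and at 11.8, 11.1 and 11.6 FPKM in control 1 to 3, high in irradiated 1 and 2 and within the control range in irradiated 3 (0.69 ± 0.30, limma adjusted p = 0.302). In irradiated lung the library with the highest Clec14a had the lowest Mmrn2, while control 2 was the lowest control for both genes. A relation of the 2 levels was not tested.

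Clec1a, a receptor of endothelium and myeloid cells that recognises fungal melanin, overlapped between groups, at 23.4, 30.1 and 24.1 FPKM in irradiated and 25.9, 25.9 and 39.9 FPKM in control lung (log2 change -0.21 ± 0.19, limma adjusted p = 0.601). Control 3 held most of that difference, and without it the change was -0.01. Clec4g, or LSECtin, known from liver sinusoids, was at 0.661 to 2.00 FPKM in irradiated and 1.63 to 2.07 FPKM in control lung. Of 10 pan-endothelial markers 9 had negative changes (55.8% of all genes had) and 4, Tek, Tie1, Egfl7 and Esam, were lower without overlap (14.6% of all genes). Their sums were 686 to 792 FPKM in irradiated and 810 to 996 FPKM in control lung. Tek, the angiopoietin receptor, was at 28.8 ± 7.68 FPKM in irradiated and 67.3 ± 9.44 FPKM in control lung (SD, n = 3 each), while Pecam1, which all endothelium carries, was at 177 ± 30.8 FPKM in irradiated and 174 ± 15.8 FPKM in control lung. Relative to the 10 markers Clec14a was at -0.54, -0.39 and 0.12 in irradiated 1 to 3 and at -0.16, -0.06 and 0.03 in control 1 to 3, which overlap, and the part of endothelial cell number was not tested.

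Clec1b, or CLEC-2, the receptor by which platelets bind podoplanin, had the most negative change of the 23. It was at 1.60, 5.18 and 6.32 FPKM in irradiated 1 to 3 and at 7.24, 10.4 and 10.1 FPKM in control 1 to 3. All irradiated libraries were below the controls, irradiated 1 by far (log2 change -1.05 ± 0.39, limma adjusted p = 0.243), and without irradiated 1 the change was -0.59. Of 8 platelet and megakaryocyte markers 8 had negative changes (55.8% of all genes had), among them Ppbp, a platelet chemokine (4.61, 30.6 and 15.6 FPKM in irradiated and 31.4, 54.5 and 53.9 FPKM in control lung), and Gp6, the platelet collagen receptor (0.0378, 0.996 and 0.608 FPKM in irradiated and 1.44, 1.90 and 1.94 FPKM in control lung), which was tested only through its control level. None passed over all genes. Their sums were 22.8, 65.9 and 62.0 FPKM in irradiated 1 to 3 and 74.9, 129 and 125 FPKM in control 1 to 3. Without Ppbp the other 7 summed to 18.2, 35.3 and 46.4 FPKM in irradiated 1 to 3 and to 43.6, 74.0 and 70.7 FPKM in control 1 to 3, which overlap. Relative to the 8 markers Clec1b was at -0.04 to 0.37 in irradiated and 0.27 to 0.37 in control lung, which overlap. Irradiated 2 held the highest red cell sum, yet a platelet sum below all controls. Podoplanin itself, Pdpn, was level at 57.5 ± 4.48 FPKM in irradiated and 58.3 ± 3.21 FPKM in control lung (log2 change -0.02 ± 0.10, limma adjusted p = 0.932).

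**Figure D4:**
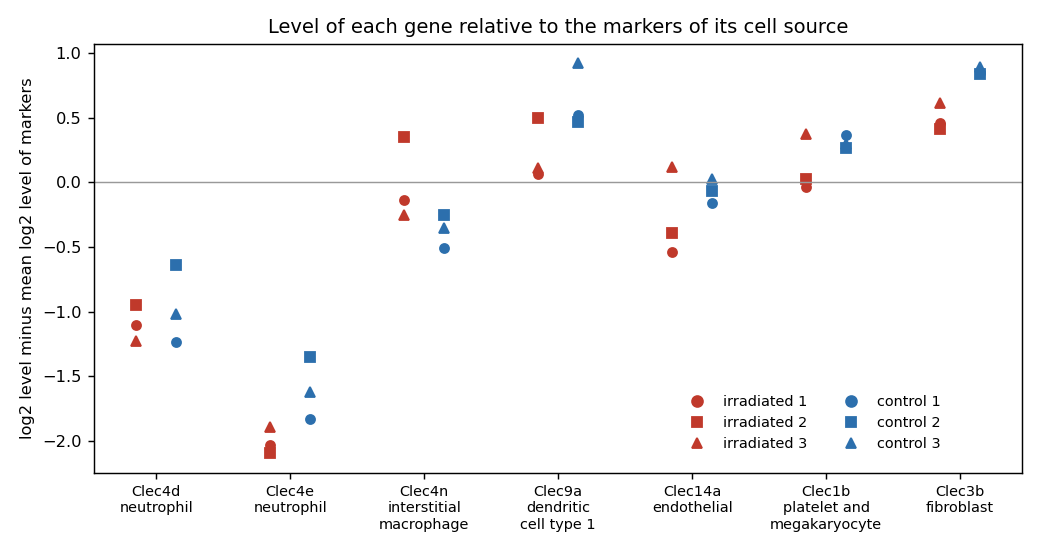
Level of 7 C-type lectin genes relative to the markers of their cell source, as log2(FPKM + 1) of the gene minus the mean over the tested markers on the vertical axis, each point 1 library and irradiated left of control. The groups overlap for Clec4d, Clec4n, Clec9a, Clec14a and Clec1b, and lie apart for Clec4e and Clec3b.

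Both secreted members made by stromal cells had negative changes (55.8% of all genes had), with irradiated 1 apart from irradiated 2 and 3. Clec3b, or tetranectin, a plasminogen-binding protein of fibroblasts, was at 56.2, 29.0 and 34.6 FPKM in irradiated 1 to 3 and at 50.9, 70.5 and 51.9 FPKM in control 1 to 3 (log2 change -0.56 ± 0.25, limma adjusted p = 0.31). Clec11a, a growth factor of blood and bone progenitors, was at 7.69, 2.23 and 1.11 FPKM in irradiated lung and at 5.10, 6.61 and 5.24 FPKM in control lung (-0.76 ± 0.49, limma adjusted p = 0.459). Irradiated 1 was the highest library of the 6 for Clec11a and irradiated 3 the lowest. Without irradiated 1 the changes were -0.83 and -1.34 (limma adjusted p = 0.0937 and 0.0638, against 0.638 and 0.728 at the highest over the alternatives).

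The summed level of fibroblast markers was also higher in irradiated 1 than in irradiated 2 and 3, with sums of 605, 293 and 310 FPKM in irradiated 1 to 3 and of 401, 532 and 407 FPKM in control 1 to 3, and 8 of 10 markers had negative changes (55.8% of all genes had). Irradiated 1 was the highest irradiated library for 7 of the 10 and the lowest for 2, Pi16 and Tcf21. Tcf21 was lower without overlap (14.6% of all genes were) and Pdgfra higher (9.91% of all genes were). Relative to these 10 markers Clec3b was at 0.46, 0.41 and 0.61 in irradiated 1 to 3 and at 0.84, 0.84 and 0.89 in control 1 to 3, without overlap. On that scale irradiated 1 lay between irradiated 2 and 3. Clec11a was at -2.26, -2.80 and -3.46 relative to the markers in irradiated lung and at -2.24, -2.39 and -2.19 in control lung.

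The Clec2 genes encode ligands of the NKR-P1 receptors of natural killer cells. Clec2d, or Clr-b, is the broadly expressed ligand of the inhibitory receptor Klrb1b, and its loss exposes a cell to killing. It was at 61.3, 47.7 and 62.8 FPKM in irradiated 1 to 3 and at 85.3, 88.1 and 112 FPKM in control 1 to 3. All irradiated libraries were below all controls (57.2 ± 8.34 FPKM in irradiated and 95.1 ± 14.7 FPKM in control lung, SD, n = 3 each). The log2 change was -0.72 ± 0.15 (limma adjusted p = 0.097, and 0.0828 to 0.282 over the alternatives). The gene lies at chromosome 6, 129157578 to 129163498.

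Klrb1b, the receptor for Clec2d, was level at 3.23 ± 0.957 FPKM in irradiated and 3.22 ± 0.0598 FPKM in control lung, while 5 of 5 tested natural killer cell markers (Klra8, Gzma, Ncr1, Prf1 and Klrb1c) were lower without overlap, as 14.6% of all genes were, with list sums of 8.85 to 19.5 FPKM in irradiated and 35.6 to 44.9 FPKM in control lung. Clec2i, or Clr-g, was at 3.44, 2.18 and 4.38 FPKM in irradiated 1 to 3 and at 3.99, 3.71 and 2.69 FPKM in control 1 to 3, with full overlap (log2 change -0.06 ± 0.22, limma adjusted p = 0.91). Its sign turned with a scaling to a common sum, which also raised all values relative to the 1 added before the logarithm.

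Clec12b, an inhibitory receptor of macrophages that recruits phosphatases, had the smallest p of the 23. It was at 2.68, 3.95 and 3.02 FPKM in irradiated 1 to 3 and at 6.04, 7.56 and 7.06 FPKM in control 1 to 3. The irradiated libraries all lay below the controls (log2 change -0.91 ± 0.15, limma adjusted p = 0.07, or 0.0598 to 0.282 over the alternatives, ranked 87 of all genes by p). Its level is uncertain, since its annotated span, chromosome 6, 129352476 to 129404597 on the minus strand, holds Clec1b and Clec9a on the other strand and shares 951 bases with Clec1a on its own strand. Without a stated strand setting, reads of these genes cannot be told apart where they overlap, and Clec1b, Clec9a and Clec1a are at 4.37, 8.80 and 25.9 FPKM in irradiated and 9.25, 12.0 and 30.5 FPKM in control lung. Clec16a, which despite its name is an endosomal regulator of mitochondrial turnover and not a sugar receptor, was at 3.90 to 5.60 FPKM in irradiated and 3.40 to 4.52 FPKM in control lung (0.24 ± 0.15, limma adjusted p = 0.451).

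By position, most of the family lies in 2 clusters on chromosome 6. The first, from 122898807 to 123266830, holds 9 of the genes, Clec4a1 to Clec4e. All 7 tested there had positive changes, with a median of 0.65. The second, from 128639348 to 129449748, holds 13 of them, Clec2h to Clec7a. There 6 of 8 tested had negative changes, with a median of -0.31, and the 2 positive ones were Clec12a and Clec7a. Among the negative ones, the span of Clec12b overlaps those of Clec1b, Clec9a and Clec1a, so their changes may not be separate. Over all genes tested, 44.2% of changes were above 0 and 55.8% below. This split was seen in the data and was not tested.

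**Figure D5:**
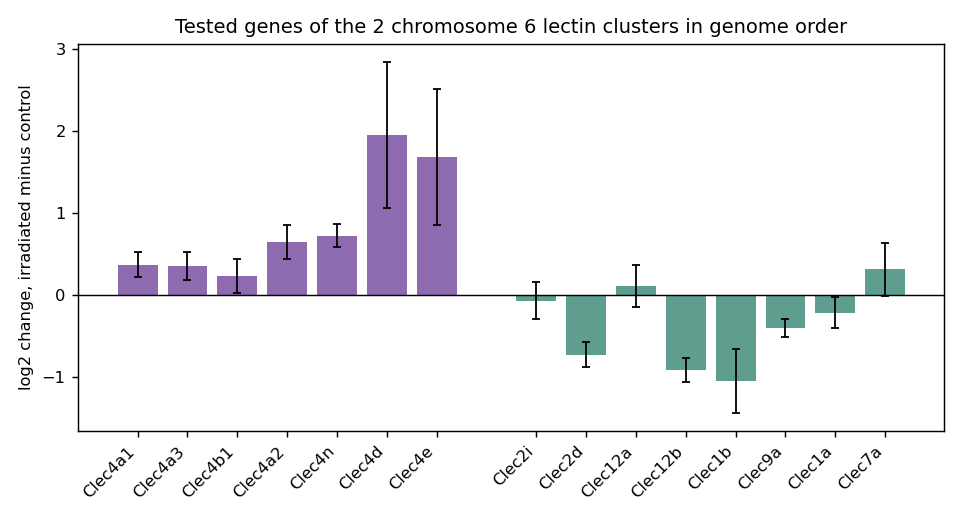
Log2 change (irradiated minus control, vertical axis, bars from 0 with the standard error) of the tested genes of 2 chromosome 6 clusters, in genome order from left to right. The 7 genes of the first cluster are above 0, and 6 of 8 in the second, some with overlapping spans, are below 0.

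The third cluster, on chromosome 8 from 3793395 to 4187707, holds the 7 Cd209 genes, of which Cd209a alone was tested. Cd209c was at 1.32, 0.562 and 0.529 FPKM in irradiated 1 to 3 and at 1.02, 0.549 and 0.412 FPKM in control 1 to 3. Cd209f was at 0.822, 0.131 and 0.31 FPKM in irradiated and at 0.992, 0.904 and 0.338 FPKM in control lung. Cd209b (0.148 to 0.467 FPKM in irradiated and 0.228 to 0.302 FPKM in control lung), Cd209g (0.0393 to 0.159 FPKM in irradiated and 0.0124 to 0.508 FPKM in control lung) and Cd209d (0.0244 to 0.536 FPKM in irradiated and 0.0663 to 0.199 FPKM in control lung) were lower still, and each overlapped between groups. The other 12 genes under the minimum, Cd209e among them, stayed at or under 0.241 FPKM in every library. They include Clec4f, the marker of liver macrophages, and Clec4b2, Clec2h and Clec18a, all listed at 0 in at least 1 library.

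The signalling partners of the receptors had mostly small positive changes. Of 13 adaptors and kinases of the activating receptors, 12 had positive changes (44.2% of all genes had) with a median of 0.25, and none passed over all genes (0.18% called). Irradiated 1 was the lowest irradiated library for 11 of the 13. The median log2 level of the list, less the control mean, was 0.0003, 0.42 and 0.39 in irradiated 1 to 3. Syk, the kinase these receptors share, was at 15.8, 20.7 and 20.1 FPKM in irradiated 1 to 3 and at 13.4, 12.9 and 12.5 FPKM in control 1 to 3, without overlap (log2 change 0.50 ± 0.12, limma adjusted p = 0.111). Vav1, an exchange factor downstream of Syk, was at 5.81, 9.49 and 8.49 FPKM in irradiated and at 4.61, 4.26 and 4.08 FPKM in control lung, also without overlap (0.73 ± 0.17, limma adjusted p = 0.115). Fcer1g, the adaptor of Clec4e and Clec4n, overlapped, at 33.8, 68.8 and 53.3 FPKM in irradiated lung and 37.9, 39.7 and 43.5 FPKM in control lung. Tyrobp, the adaptor of Clec5a, overlapped too, at 50.03, 144 and 107 FPKM in irradiated lung and 44.7, 44.2 and 63.8 FPKM in control lung. Card9, which carries the signal on to NF-κB, was at 7.497 ± 1.70 FPKM in irradiated and 6.09 ± 0.675 FPKM in control lung. The phosphatases of inhibitory receptors, Ptpn6, Ptpn11 and Inpp5d, had changes of 0.58, 0.22 and 0.32. Ptpn11 and Inpp5d were higher without overlap, as 9.91% of all genes were (limma adjusted p = 0.259 and 0.277).

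Of 26 genes with the same lectin domain under other names, 18 were tested, 9 had positive and 9 negative changes, and none passed over all genes. The macrophage mannose receptor Mrc1 was at 19.8, 13.05 and 14.1 FPKM in irradiated 1 to 3 and at 9.25, 10.3 and 10.3 FPKM in control 1 to 3, without overlap (log2 change 0.59 ± 0.16, limma adjusted p = 0.144). Cd302, a receptor of myeloid cells, was at 32.0, 24.8 and 26.0 FPKM in irradiated and at 15.6, 20.7 and 19.9 FPKM in control lung, also without overlap (0.54 ± 0.14, limma adjusted p = 0.143). Selp, the P-selectin of platelets and endothelium, was higher without overlap (2.72 ± 1.17 FPKM in irradiated and 1.29 ± 0.395 FPKM in control lung, limma adjusted p = 0.231). Cd248, a marker of perivascular and fibroblast cells (2.04 ± 0.808 FPKM in irradiated and 4.03 ± 1.23 FPKM in control lung), and the mannose-binding lectin Mbl1 (0.708 ± 0.237 FPKM in irradiated and 1.46 ± 0.324 FPKM in control lung) were lower without overlap (limma adjusted p = 0.205 and 0.202), and Mbl1 was tested only through its control level. The surfactant lectins Sftpa1 and Sftpd were level, Sftpa1 at 889 ± 57.8 FPKM in irradiated and 904 ± 35.9 FPKM in control lung, and Sftpd at 437 ± 43.0 FPKM in irradiated and 425 ± 35.0 FPKM in control lung.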

How the data were processed

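Per the labels' protocols, TRIzol served to extract the RNA, and polyA libraries were read on a DNBSEQ-T7. Tools named in the submitters' processing notes, without role or order, are STAR 2.7.6a, fastp and DESeq2, and the build is GRCm39. Per the file headers, the authors deposited 1 table per library with location, coverage, FPKM and TPM per gene. What strand setting and annotation were used is not given in the sources used here.

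FPKM as deposited by the authors were summed per gene symbol over named rows. The deposited coverage, a signal per base, served only for depth, as its ratio to FPKM took a common value in 30.3% to 31.6% of genes per library. The TPM column was not used, since it covers named and assembled rows together. As the files hold no counts, limma 3.58.1 (R 4.3.3), with trend and robust variances, was fitted on log2(FPKM + 1) for the 13908 genes averaging 1 FPKM or more. Benjamini-Hochberg adjusted p under 0.05 was called. The procedure was tested on simulated data with independent noise, in which only the more abundant genes were changed. That test does not cover shifts shared within a library or changes of genes near 1 FPKM. Its outcome is not given here, and no result rests on it. Python 3.11.15, pandas 2.3.3, numpy 2.4.6 and matplotlib 3.10.9 handled the tables and plots. No counting interval can be given without counts, and low levels are less precise.

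The members and lists were chosen with earlier results of these data known. Cell sources, pathway lists and markers come from general knowledge. Every member with a mean of at least 1 FPKM, or 0.3 FPKM in any library, is named. List genes are named where their groups do not overlap at an unadjusted p under 0.05, up to 6 a list, or where a result needs them, and those named beside a result for comparison were chosen after their values were seen. A list gene that met this rule is not reported here. Chromosome numbers come from a RefSeq table of GRCm38.p6 by symbol, and coordinates from the files (GRCm39).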

Additional observations from a re-analysis of the deposited data

How the results depend on the processing

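No C-type lectin gene passed an adjusted p of 0.05 in any of the 16 alternatives, that is other pseudocounts, filters, scalings and variance estimates, the replicate block and leaving out each library (0 in each). The lowest adjusted p was 0.0543. Over all genes 25 were called, against 0 with no filter on low values, 38 with a mean of at least 5 FPKM, 14 scaled to a common sum, 11 with median-ratio scaling and 0 with the replicate block, and 0 to 116 when a library was left out (100 without irradiated 1, 3 without irradiated 2, 116 without irradiated 3, 0 without control 1 or 3 and 1 without control 2). Members higher at an unadjusted p under 0.05 numbered 4, against 6 scaled to a common sum and 1 to 8 when a library was left out. The count was 8 without irradiated 1, 1 without control 2 and 2 without irradiated 3 or control 1. With the 5 FPKM minimum it was 1, since Clec4a1, Clec4a2 and Clec5a, with means of 3.52, 3.13 and 1.76 FPKM, were then not tested. Members lower numbered 5, against 3 scaled to a common sum and 4 to 7 when a library was left out. The scaling to a common sum moved the median of all genes by 0.12. That common sum was above the sum of every library (298352 to 350820 FPKM). The 1 added before the logarithm therefore weighed less there, and this setting does not show the scaling alone.

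Of 23 genes, 20 kept their direction in every alternative. Clec2i turned to 0.037 with the common sum and ranged from -0.24 to 0.14 when a library was left out, Cd209a from -0.23 to 0.26 and Clec12a from -0.19 to 0.28. The median of the dendritic cell members ranged from -0.037 (without irradiated 1) to 0.31 and was -0.014 without control 3, of the endothelial ones from -0.44 to -0.17, of the macrophage ones from 0.26 to 0.58 and of the neutrophil ones from 0.96 to 2.49. The cause was not tested. Libraries of the same number did not deviate together (r = -0.17, -0.54 and -0.28), and those of unlike number had r of -0.28 to 0.52. Deviations from a mean of 3 libraries depend on one another, so these values cannot decide whether the numbers pair the samples. Levels near 1 FPKM and below are limited by depth.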

Other observations

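Each table also holds loci assembled from its own library, without a name, and the levels of those that overlap a member on its strand were compared after the data were seen. For Clec4n, Clec14a and Clec2d they gave log2 changes of 0.72, -0.58 and -0.72, and for Clec4d and Clec4e 1.94 and 1.66. The values differed more for Clec3b, at -0.27 in place of -0.56, where irradiated 2 was at 52.9 in place of 29.0 FPKM and a locus reached another gene, and for Clec9a, at -0.65 in place of -0.40, whose loci reached another gene in 3 libraries. Clec12b was not resolved from Clec1a in this way: in all 6 libraries a single assembled locus spanned both genes, at 24.8, 31.9 and 26.2 FPKM in irradiated 1 to 3 and 30.4, 31.7 and 44.2 FPKM in control 1 to 3. Clec9a and Clec1b were assembled into a common locus in 3 libraries, at 10.6 FPKM in irradiated 2, 22.2 FPKM in control 2 and 13.1 FPKM in control 3.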
